A study of Mus musculus with 20 samples.

Results

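Desmosomal cadherins are the transmembrane proteins by which neighbouring keratinocytes hold on to each other, and 8 of their genes in the mouse (desmogleins Dsg1a, Dsg1b, Dsg2, Dsg3 and Dsg4, desmocollins Dsc1, Dsc2 and Dsc3) are described here together with corneodesmosin (Cdsn) and the plaque protein plakophilin 1 (Pkp1). The 10 genes were chosen by name as a family, out of 22180 genes in all, with earlier results of these data known. Each had an array feature annotated with its symbol alone, so all 10 were measured. Where a gene had several such features the brightest of them, by its mean over all 20 arrays, stood for it, which concerned Dsg2 only. The skin came from the shaved abdomen of C57/B6 mice that were 9 weeks old, and each mouse gave 1 array. HFD-IMQ mice ate a high fat diet and received 62.5 mg of 5% imiquimod (IMQ) cream each day for 5 days, and HFD-vehicle mice ate the same diet and received vehicle. CD-IMQ and CD-vehicle mice ate control chow and received IMQ cream and vehicle. Each group held 5 mice, and skin was taken 24 h after the last application in all of them. Imiquimod activates Toll-like receptor 7, and the cream is used to raise psoriasis-like inflammation in mouse skin, a short-term model in which the mice carry no engineered allele.

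A desmosome is built from desmogleins and desmocollins that bind across the gap between cells, and from a plaque of plakoglobin, plakophilins and desmoplakin that ties their tails to keratin filaments. The cadherins follow the layers of the epidermis: Dsg3, Dsc3 and Dsg2 are known from basal and lower layers, Dsg1 and Dsc1 from the upper, differentiating layers, and Dsg4 in the mouse mainly from the hair follicle. As cells cornify, corneodesmosin is added to the outer face of the junctions, and kallikrein proteases later cut it and the cadherins so that corneocytes can be shed. In the RefSeq annotation of GRCm38.p6 the 8 cadherin genes lie side by side in the order Dsc3, Dsc2, Dsc1, Dsg1c, Dsg1a, Dsg1b, Dsg4, Dsg3 and Dsg2, with the non-member Dsg1c as the only other protein-coding gene among them. Mouse Dsg1a, Dsg1b and Dsg1c are close copies of each other, and how far their probes share signal was not tested.

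The values are log2 array values on the scale of robust multi-array averaging (RMA), and a level of 1 gene cannot be set against that of another. Array medians lay between 2.86 and 3.04, and a value at or below them is near background. As a check of the tissue, the 7 measured keratinocyte markers averaged 7.63 to 9.66 over the 20 arrays, well above the array medians. In whole skin, fewer cells of a type and less RNA per cell cannot be told apart. Of the single arrays, 2 stood apart for the family. CD-vehicle 3 was the lowest of its group in 10 of 10 genes and HFD-vehicle 3 the highest of its group in 10 of 10. CD-vehicle 3 was also low in the keratinocyte markers (7.63, against 8.49 to 8.80 on the other CD-vehicle arrays), and HFD-vehicle 3 was high in 13 hair shaft and inner root sheath markers (9.18, against 5.94 to 6.90 on the other HFD-vehicle arrays). In the keratinocyte markers HFD-vehicle 3 lay within its group (9.06, against 8.80 to 9.23). In the hair markers CD-vehicle 3 was low (3.0, against 4.13 to 5.01). Results are therefore also given with both arrays left out, an alternative chosen after seeing the data.

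**Figure D1:**
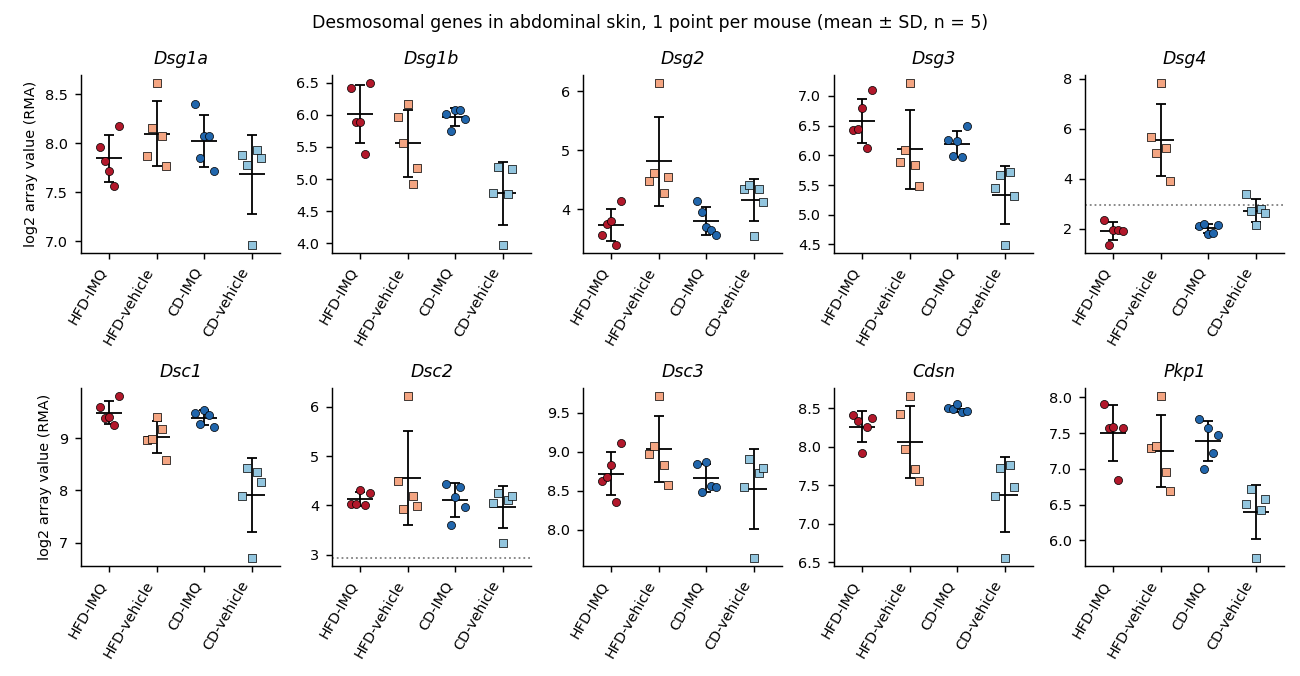
Log2 array values (RMA) of the 10 genes, 1 panel per gene with its own vertical axis, 1 point per mouse and bars for the mean ± SD of 5 mice; the dotted line, drawn where values come near it, is the median over all features (2.94). Every gene but Dsg2 and Dsg4 has its lowest group mean in CD-vehicle, and Dsg4 lies well above the dotted line in HFD-vehicle only.

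In chow-fed mice, IMQ cream was compared with vehicle first. Of the 10 genes 5 were higher in CD-IMQ than in CD-vehicle skin and 0 were lower: the desmocollin Dsc1, the desmogleins Dsg1b and Dsg3, corneodesmosin and plakophilin 1. The sizes ran from 1.81-fold (Dsg3) to 2.79-fold (Dsc1). Over all genes 3.91% were called higher and 7.02% lower, 10.9% in all, where called means a limma p below 0.05 after Benjamini-Hochberg adjustment across the 22180 genes. That base includes genes near background. In a fit of the 13514 genes with means above the median feature, 899 were called higher and 1734 lower, a larger share. The median log2 change of the 10 genes was 0.60, beside 0.016 over all genes. In the same 5 genes the 5 CD-IMQ values all lay above the 5 CD-vehicle values, and groups did not overlap in 8.89% of all genes. With CD-vehicle 3 and HFD-vehicle 3 left out, 5 genes were higher and 2 lower, the added calls being Dsg2 (log2 change -0.50) and Dsg4 (-0.86), and the median of the 10 genes was 0.405. Of all 22180 genes 741 were called higher and 1340 lower in that fit. The balance of calls over all genes depends on scaling: 868 were higher and 1556 lower as deposited, against 1108 and 1301 after a further quantile normalization.

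Dsc1, the desmocollin of the upper epidermis, had log2 values of 9.48, 9.27, 9.55, 9.44 and 9.21 in CD-IMQ skin, against 7.89, 8.44, 6.71, 8.36 and 8.16 in CD-vehicle skin. Every CD-IMQ mouse lay above every CD-vehicle mouse, and CD-vehicle 3 lay far below the rest of its group. The log2 difference was 1.48 ± 0.23 (SE, limma adjusted p = 0.000152), or 1.18 without CD-vehicle 3. The other desmocollins did not pass: Dsc2 averaged 4.11 ± 0.34 in CD-IMQ and 3.97 ± 0.42 in CD-vehicle skin (SD, n = 5 each), and Dsc3, a basal-layer desmocollin, averaged 8.66 ± 0.18 in CD-IMQ and 8.52 ± 0.51 in CD-vehicle skin. The 95% interval of the log2 difference ran from -0.49 to 0.77 for Dsc2 and from -0.30 to 0.57 for Dsc3, which leaves room for changes of either sign.

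Among desmogleins, Dsg1b had log2 values of 6.02, 5.75, 6.07, 6.08 and 5.94 in CD-IMQ skin, against 4.79, 5.19, 3.98, 4.77 and 5.16 in CD-vehicle skin. The groups did not overlap, and the CD-IMQ mice lay close together. The log2 difference was 1.19 ± 0.24 (SE, limma adjusted p = 0.00206). Its neighbour and copy Dsg1a, measured by a separate feature, averaged 8.02 ± 0.26 in CD-IMQ and 7.68 ± 0.40 in CD-vehicle skin (SD, n = 5 each) with overlapping groups (log2 difference 0.34 ± 0.18, SE, limma adjusted p = 0.268). Dsg1c, the third copy, was near background in every group (2.12 in CD-IMQ and 1.90 in CD-vehicle skin). Dsg3, the desmoglein of the basal layers and the target of pemphigus vulgaris autoantibodies in humans, had 6.26, 5.98, 6.24, 5.97 and 6.49 in CD-IMQ skin, against 5.45, 5.67, 4.50, 5.72 and 5.32 in CD-vehicle skin. These groups too did not overlap (log2 difference 0.86 ± 0.26, SE, limma adjusted p = 0.0356), but the call was lost when any of 7 arrays was left out: CD-IMQ 1, 3, 4 or 5 or CD-vehicle 1, 3 or 5 (highest adjusted p = 0.114, without CD-vehicle 3). Dsg2, a desmoglein shared with simple epithelia and heart, averaged 3.80 ± 0.24 in CD-IMQ and 4.16 ± 0.35 in CD-vehicle skin and did not pass (limma adjusted p = 0.439).

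Pkp1, the plakophilin of the suprabasal plaque, had log2 values of 7.70, 7.0, 7.57, 7.22 and 7.48 in CD-IMQ skin, against 6.51, 6.72, 5.76, 6.43 and 6.57 in CD-vehicle skin. The groups did not overlap, and the log2 difference was 0.99 ± 0.22 (SE, limma adjusted p = 0.00497). Corneodesmosin, the extracellular glycoprotein that seals desmosomes during cornification, had 8.51, 8.50, 8.56, 8.46 and 8.47 in CD-IMQ skin, against 7.36, 7.73, 6.56, 7.77 and 7.48 in CD-vehicle skin. The CD-IMQ mice were nearly level with each other and all lay above the CD-vehicle mice (log2 difference 1.12 ± 0.20, SE, limma adjusted p = 0.000765).

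Cdsn is the member whose upstream sequence the RefSeq table of GRCm38.p6 holds, for 2 annotated starts on the plus strand, and both are shown because its level differed between CD-IMQ and CD-vehicle skin. The 250 bases before each start, 5′ to 3′, lie at chr17:35542851-35543100 and chr17:35551878-35552127. Capitals mark matches to TTNNGNAA, a loose form of the site of C/EBP factors, which are known to act in keratinocyte differentiation.
Cdsn, first start: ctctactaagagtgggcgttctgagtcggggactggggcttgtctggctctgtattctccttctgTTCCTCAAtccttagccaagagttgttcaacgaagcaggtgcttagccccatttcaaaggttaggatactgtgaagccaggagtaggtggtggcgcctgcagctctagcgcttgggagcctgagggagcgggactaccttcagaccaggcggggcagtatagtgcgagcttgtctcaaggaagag
Cdsn, second start: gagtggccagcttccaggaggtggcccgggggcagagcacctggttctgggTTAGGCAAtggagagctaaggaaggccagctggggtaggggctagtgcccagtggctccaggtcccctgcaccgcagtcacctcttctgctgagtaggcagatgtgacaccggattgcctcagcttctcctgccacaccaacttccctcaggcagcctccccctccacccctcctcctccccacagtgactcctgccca
Each window held 1 such match on either strand, and 36.8% of 32851 windows of the same length in the table held at least 1. Neither window held the AP-1 site TGANTCA (6.75% of windows), the grainyhead-like site AACNGGTT (1.79%), the KLF site GGGNGTGG (15.9%) or the TATA box TATAAA (12.4%), and so no match overlapped another motif. A match is a description of these letters and not a site shown to be bound.

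The second comparison asked the same of mice on the high fat diet. Of the 10 genes 0 were higher and 2 were lower in HFD-IMQ than in HFD-vehicle skin, Dsg4 and Dsg2. Dsg4 was near background in all HFD-IMQ mice, so no fold is given for it; Dsg2 was 2.11-fold lower. Over all genes 3.65% were called higher and 2.24% lower, 5.89% in all, and groups did not overlap in 6.06%. Dsg4 and Dsg2 were also the members without overlap. The median log2 change of the 10 genes was -0.029, beside -0.00067 over all genes. With CD-vehicle 3 and HFD-vehicle 3 left out, 2 genes were higher (Dsg3 by 0.75 and Dsc1 by 0.56 on the log2 scale) and 2 lower, and the median was 0.162. Of all 22180 genes 743 were called higher and 511 lower in that fit.

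Dsg4, the desmoglein of the hair follicle, whose loss gives the lanceolate hair phenotype in mice, had log2 values of 2.33, 1.36, 1.96, 1.95 and 1.89 in HFD-IMQ skin, against 5.67, 5.03, 7.85, 5.23 and 3.92 in HFD-vehicle skin. All 5 HFD-IMQ values lay below the array medians and all 5 HFD-vehicle values above them, so the size of the fall is uncertain at its lower end. The log2 difference was -3.64 ± 0.42 (SE, limma adjusted p = 5.64e-06), and -3.07 without HFD-vehicle 3. In chow-fed mice the same gene had 2.11, 2.16, 1.78, 1.83 and 2.13 in CD-IMQ skin, against 3.37, 2.71, 2.13, 2.79 and 2.60 in CD-vehicle skin. There both groups were near background, they overlapped through CD-vehicle 3 (log2 difference -0.72 ± 0.42, SE, limma adjusted p = 0.324), and a fit of these 2 groups alone gave an adjusted p of 0.0217 in limma. The SE of the main fit also draws on the HFD groups. The SD of Dsg4 was 1.44 in HFD-vehicle and 0.44 in CD-vehicle skin.

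Dsg2 had log2 values of 3.57, 3.76, 3.81, 3.41 and 4.14 in HFD-IMQ skin, against 4.48, 4.62, 6.15, 4.28 and 4.55 in HFD-vehicle skin. The groups did not overlap, and HFD-vehicle 3 lay far above the rest of its group. The log2 difference was -1.08 ± 0.25 (SE, limma adjusted p = 0.0101), and -0.75 without HFD-vehicle 3 (adjusted p = 0.00923). The call was lost in a fit of the 2 groups alone (adjusted p = 0.0517) and when both Dsg2 features were averaged (log2 difference -0.54, adjusted p = 0.0835). The second Dsg2 feature was near background, averaging 2.30 in HFD-IMQ and 2.30 in HFD-vehicle skin.

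The members that were higher after IMQ in chow-fed mice did not pass in HFD-fed mice. Dsc1 averaged 9.49 ± 0.21 in HFD-IMQ and 9.02 ± 0.30 in HFD-vehicle skin (SD, n = 5 each), with a log2 difference of 0.47 and a 95% interval from -0.0048 to 0.94. Dsg1b averaged 6.02 ± 0.45 in HFD-IMQ and 5.56 ± 0.52 in HFD-vehicle skin, and its interval ran from -0.037 to 0.96. Dsg3 (0.47), Pkp1 (0.24) and Cdsn (0.19) also had positive log2 differences that did not pass, while those of Dsc2 (-0.43), Dsc3 (-0.31) and Dsg1a (-0.25) were negative and did not pass. Dsg3 passed without HFD-vehicle 3 (log2 difference 0.75, adjusted p = 0.0398).

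**Figure D2:**
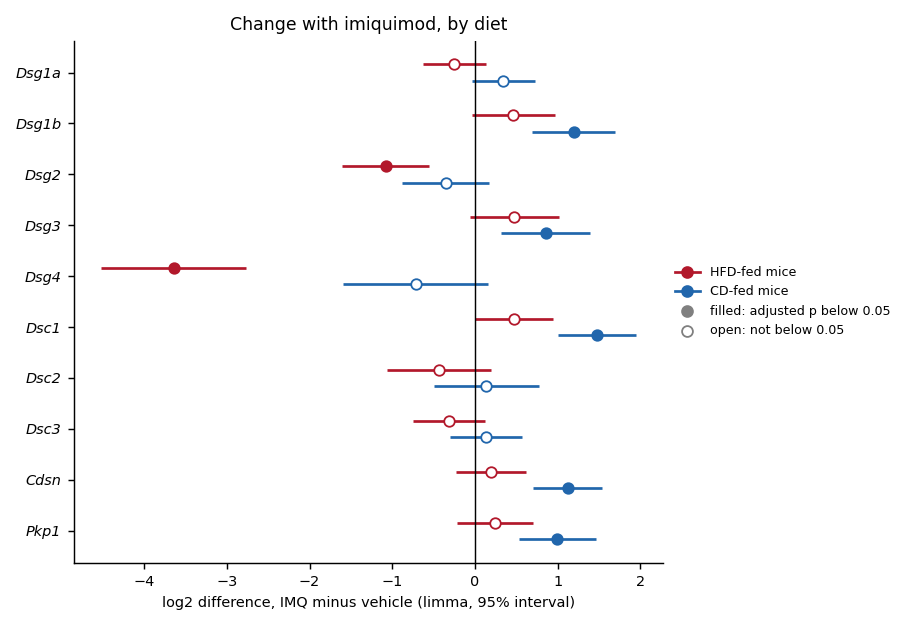
Log2 difference between IMQ and vehicle skin for each gene, in HFD-fed (red, upper) and CD-fed mice (blue, lower), with 95% intervals from limma; filled points have an adjusted p below 0.05. The 5 filled blue points (Dsg1b, Dsg3, Dsc1, Cdsn and Pkp1) lie to the right of 0 and the 2 filled red points (Dsg2 and Dsg4) to the left.

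The third comparison asked what the diet changed without imiquimod. Of the 10 genes 3 were higher in HFD-vehicle than in CD-vehicle skin and 0 lower: Dsg4, Dsc1 (2.16-fold) and Pkp1 (1.81-fold), with no fold for Dsg4 because its CD-vehicle mean was near background. An unadjusted limma p below 0.05 was reached by 9 of the 10 genes, which varied together within groups, and that share was not counted over all genes. Over all genes 1.22% were called higher and 0.956% lower, 2.18% in all. These counts over all genes were unstable: 271 were higher and 212 lower, against 53 and 84 in a fit of the 2 groups alone, 125 and 106 without CD-vehicle 3, 187 and 118 without HFD-vehicle 3, 144 and 116 without HFD-vehicle 1, and 158 and 154 without CD-vehicle 5. The median log2 difference of the 10 genes was 0.73, beside -0.0080 over all genes. Groups did not overlap for Dsg4 and Dsc1 among the 10 genes and for 3.94% of all genes. With CD-vehicle 3 and HFD-vehicle 3 left out, 2 genes were higher (Dsg4 by 2.10 and Dsc1 by 0.72 on the log2 scale), and the median of the 10 genes was 0.308. Of all 22180 genes 139 were called higher and 78 lower in that fit. In the same comparison 11 of 13 hair markers (median log2 difference 2.89), 3 of 7 keratinocyte markers (0.40) and 2 of 6 cell cycle genes (0.73) were higher and 0 lower, and their part in the result was not tested.

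Dsg4 averaged 5.54 ± 1.44 in HFD-vehicle and 2.72 ± 0.44 in CD-vehicle skin (SD, n = 5 each), a log2 difference of 2.82 ± 0.42 (SE, limma adjusted p = 0.00068), or 2.24 without HFD-vehicle 3. The CD-vehicle mean lay below the array medians, so the size of the difference is uncertain. Dsc1 had log2 values of 8.96, 8.99, 9.41, 9.18 and 8.59 in HFD-vehicle skin, all above the CD-vehicle values given before (log2 difference 1.11 ± 0.23, SE, limma adjusted p = 0.00991). In a fit of these 2 groups alone Dsc1 did not pass (adjusted p = 0.0911). Pkp1 had 7.29, 7.32, 8.02, 6.95 and 6.69 in HFD-vehicle skin, and the lowest of these lay below the highest CD-vehicle value. Its call (log2 difference 0.86 ± 0.22, SE, limma adjusted p = 0.0461) was close to the threshold: it was lost on leaving out any of 14 of the 20 arrays and kept without HFD-IMQ 1 or 4, HFD-vehicle 4 or 5, CD-IMQ 2 or CD-vehicle 2 (highest adjusted p = 0.149, without CD-vehicle 3).

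The other 7 genes had positive log2 differences that did not pass over all genes. Corneodesmosin averaged 8.07 ± 0.47 in HFD-vehicle and 7.38 ± 0.49 in CD-vehicle skin (SD, n = 5 each, limma adjusted p = 0.0795), with an adjusted p of 0.0321 without HFD-vehicle 5 and 0.231 without CD-vehicle 3. Dsg1b averaged 5.56 ± 0.52 in HFD-vehicle and 4.78 ± 0.49 in CD-vehicle skin (limma adjusted p = 0.0971), with an adjusted p of 0.0448 without HFD-vehicle 4 and 0.278 without CD-vehicle 3. For Dsg3, Dsg2, Dsc2, Dsc3 and Dsg1a the log2 differences lay between 0.42 and 0.77. With CD-vehicle 3 and HFD-vehicle 3 left out, the difference was 0.42 for Dsg1b, 0.33 for Cdsn, 0.28 for Dsg3, 0.17 for Dsg2, 0.12 for Dsc3, 0.11 for Dsg1a and -0.0082 for Dsc2, so that Dsc2 was no longer positive.

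The fourth comparison set the diets against each other after imiquimod. Of the 10 genes 0 were called, with 0 at an unadjusted p below 0.05, and over all 22180 genes limma called 0 (0%). Without HFD-IMQ 4, 13 of all genes were called higher and 7 lower, and 0 of the 10. Mean levels differed by at most 0.39 on the log2 scale, with Dsg3 at 6.57 ± 0.37 in HFD-IMQ and 6.19 ± 0.22 in CD-IMQ skin (SD, n = 5 each). Corneodesmosin was the member without overlap, at 7.92 to 8.41 in HFD-IMQ and 8.46 to 8.56 in CD-IMQ skin (log2 difference -0.24 ± 0.20, SE, limma adjusted p = 0.708), and groups did not overlap in 1.67% of all genes. The 95% intervals allow differences of some size, for Dsc1 from -0.37 to 0.58 and for Dsg4 from -0.99 to 0.77, the last between groups near background. These SEs and intervals use 1 variance per gene over all 4 groups, the vehicle groups included. The SD of Dsg4 was 0.35 in HFD-IMQ, 0.18 in CD-IMQ and 1.44 in HFD-vehicle skin. That of Cdsn was 0.20, 0.039 and 0.47 in the same groups.

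**Figure D3:**
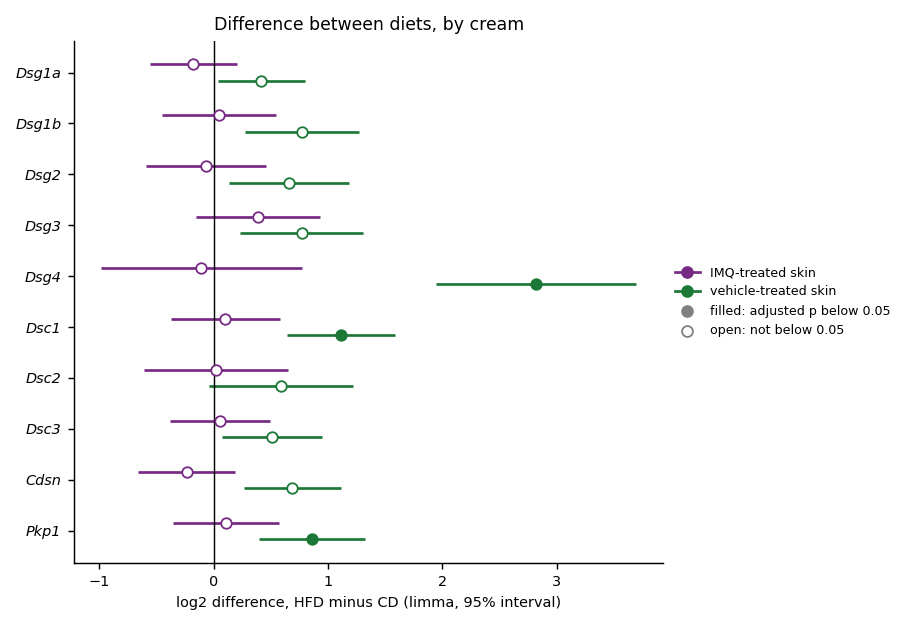
Log2 difference between HFD-fed and CD-fed mice for each gene, in IMQ-treated (purple, upper) and vehicle-treated skin (green, lower), with 95% intervals from limma; filled points have an adjusted p below 0.05. All 10 green points lie to the right of 0, with Dsg4, Dsc1 and Pkp1 filled, and no purple point is filled.

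The interaction asked whether the change with imiquimod differed between the diets. It is the IMQ minus vehicle difference in HFD-fed mice less that in CD-fed mice. It equally is the HFD minus CD difference in IMQ-treated skin less that in vehicle-treated skin. For Dsg4 these diet differences were -0.11 and 2.82, and the medians of the 10 genes were 0.032 and 0.73. For Dsg4 and at the median, the term thus largely repeats the diet difference in vehicle-treated skin with its sign reversed. It is not a result separate from that comparison. Of the 10 genes 1 was called, Dsg4, with a negative term (-2.93 ± 0.60, SE, limma adjusted p = 0.0245), among 0.663% of all genes called, 0.473% with a positive and 0.189% with a negative term. As deposited, 105 of all genes had a positive and 42 a negative called term, against 58 and 41 after a further quantile normalization and 134 and 30 after centring of the arrays. The Dsg4 call was lost without HFD-IMQ 2 or HFD-vehicle 1 (highest adjusted p = 0.0565), and the term was -2.20 with CD-vehicle 3 and HFD-vehicle 3 left out (adjusted p = 0.00525). Dsg4 was near background in HFD-IMQ, CD-IMQ and CD-vehicle skin, so the size of its fall with IMQ in CD-fed mice is uncertain. That fall did not pass in the main fit but passed in a fit of the 2 groups alone (log2 difference -0.72, limma adjusted p = 0.0217). The part of the low signal in the interaction term was not tested. All 10 terms were negative, with a median of -0.73 beside -0.0010 over all genes. An unadjusted limma p below 0.05 was reached by 6 members, a share that was not counted over all genes. The members varied together within groups, so these are not 10 separate results. The terms of Dsc1 (-1.01 ± 0.32, SE, limma adjusted p = 0.124), Cdsn (-0.93 ± 0.29, SE, limma adjusted p = 0.114) and the other 7 genes did not pass over all genes. With both arrays left out, 8 of the 10 terms were negative, with Dsc1 at -0.61 and Cdsn at -0.57, and those of Dsg3 (0.11) and Dsc2 (0.026) were positive.

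Across the groups the levels came in different orders. Dsc1 had its highest mean in HFD-IMQ (9.49), then CD-IMQ (9.39), HFD-vehicle (9.02) and CD-vehicle skin (7.91), of which HFD-vehicle and CD-vehicle differed past the threshold, HFD-IMQ and CD-IMQ did not, and CD-IMQ against HFD-vehicle was not tested. Cdsn ran from CD-IMQ (8.50) through HFD-IMQ (8.26) and HFD-vehicle (8.07) to CD-vehicle (7.38), and none of the 3 neighbouring pairs differed past it in limma. Dsg4 ran from HFD-vehicle (5.54) through CD-vehicle (2.72) and CD-IMQ (2.0) to HFD-IMQ (1.90), of which neighbours HFD-vehicle and CD-vehicle differed, while CD-vehicle and CD-IMQ, and CD-IMQ and HFD-IMQ, did not pass.

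The genes also varied together between mice of a group. Over the 45 pairs of members, Pearson's r across the 20 arrays ran from -0.035 (Dsg1b with Dsg4) to 0.93 (Dsg1b with Pkp1), with a median of 0.64. After removal of the group means all pairs were positive, from 0.445 (Dsg4 with Dsc1) to 0.91 (Dsg3 with Dsc3), with a median of 0.74. Dsg4 was closest to Dsg2 across the arrays as measured (0.86) and far from Dsg1b (-0.035) and Dsg3 (0.12), its neighbours in the gene cluster. After removal of the group means it was closest to Dsc2 (0.806), and its values with Dsg2 (0.739) and Dsg3 (0.734) were alike, with Dsg1b at 0.531. These values describe arrays that share hybridisation and normalization, and the arrays CD-vehicle 3 and HFD-vehicle 3 enter each of them.

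**Figure D4:**
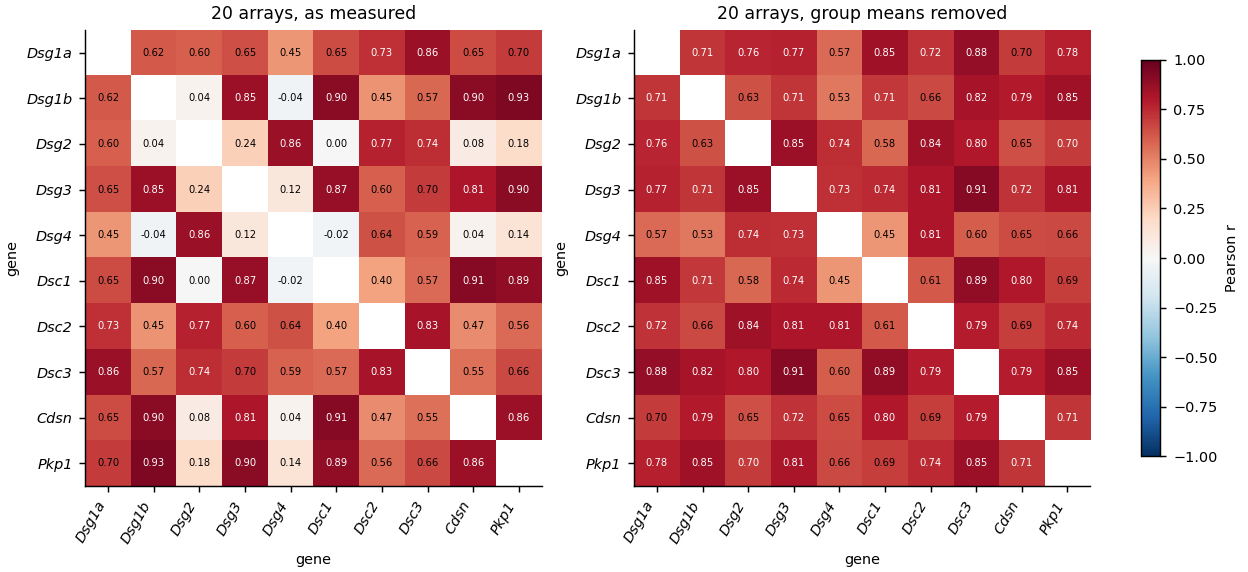
Pearson's r between each pair of the 10 genes over 20 arrays, as measured (left) and after subtraction of each group's mean (right); red is positive and blue negative. Left, Dsg2 and Dsg4 are near 0 with Dsg1b, Dsc1 and Cdsn; right, every pair is at 0.445 or above.

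Among all other named genes, those with the most similar values over the 20 arrays differed between members. For Dsc1 they were Klk7 (r = 0.983), a kallikrein that cuts corneodesmosin, Ivl (0.977), which encodes the cornified envelope protein involucrin, and Tlcd3a (0.961). For Pkp1 they were Evpl (0.969), which encodes envoplakin, and Jup (0.958), which encodes plakoglobin, both desmosomal plaque partners, and the gap junction gene Gjb2 (0.931). For Dsg4 they were S100a3 (0.979), an S100 gene of the hair cuticle, the inner root sheath keratin Krt72 (0.971) and the companion layer keratin Krt75 (0.97). Dsg2 came closest to Snrpd3 (0.941), Ctps (0.923) and the pigment enzyme gene Tyr (0.916), and Dsc2 to Foxq1 (0.935), Hephl1 (0.911) and the hair keratin-associated gene Krtap19-1 (0.898). With group means removed these values were 0.94, 0.935 and 0.946 for Dsc1, 0.934, 0.905 and 0.835 for Pkp1, and 0.901, 0.934 and 0.879 for Dsg4; for Dsg2 they were 0.875, 0.874 and 0.83, and for Dsc2 0.927, 0.902 and 0.884.

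For the remaining members the closest genes were again different ones. Cdsn had Ephx3 (r = 0.959), Mapk13 (0.958) and Calml3 (0.946), and Dsg1b had the sodium channel gene Scnn1a (0.935), Gltp (0.929) and Pnpla1 (0.928), a lipase-family gene needed for skin ceramides. Dsg3 had Cwh43 (0.949), Ankrd22 (0.945) and Crabp2 (0.925), which encodes a retinoic acid binding protein. Dsg1a had Erbb3 (0.913), Muc15 (0.89) and S100a14 (0.885), and Dsc3 had S100a14 (0.931), Fhdc1 (0.925) and Hspb1 (0.911), so that S100a14 stood near both. With group means removed, the values of these 5 members lay between 0.807 (Gltp with Dsg1b) and 0.958 (S100a14 with Dsc3).

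Markers of keratinocytes and of hair also differed between the groups. The 7 keratinocyte markers averaged 9.25 to 9.59 by array in CD-IMQ and 7.63 to 8.80 in CD-vehicle skin, and 4 of them (Krt14, Krt1, Krt10 and Krtdap) rose with IMQ in chow-fed mice while Trp63 did not pass (log2 difference -0.054). Their mean followed Dsc1 most closely (r = 0.97 over 20 arrays, 0.92 after removal of group means) and Dsg4 hardly (-0.13 and 0.25). The 13 hair markers averaged 2.81 to 4.03 in HFD-IMQ and 5.94 to 9.18 in HFD-vehicle skin, and 11 fell with IMQ in HFD-fed mice, among them the inner root sheath genes Tchh (log2 difference -6.93) and Krt71 (-6.79). With IMQ in CD-fed mice 5 of the 13 fell, and their array means were 2.89 to 3.24 in CD-IMQ and 3.0 to 5.01 in CD-vehicle skin. In HFD-IMQ skin 5 of the 13 hair markers had means below the median feature, and in HFD-vehicle skin 0. Their mean followed Dsg4 (r = 0.98, and 0.89 after removal of group means), Dsg2 (0.88 and 0.78), Dsc2 (0.63 and 0.85) and Dsc3 (0.61 and 0.73). For the other 6 members r with the hair markers lay between -0.055 (Dsc1) and 0.45 (Dsg1a) as measured. After removal of group means it lay between 0.62 (Dsc1) and 0.815 (Pkp1), and so was positive for every member. CD-vehicle 3 and HFD-vehicle 3, extreme for every member, were also the lowest and the highest of their groups in the hair markers. How far the values within groups rest on these arrays was not tested.

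Markers of other cells differed too. With IMQ in CD-fed mice 4 of 5 fibroblast markers fell and 0 rose (median log2 difference -0.73), while 3 of 6 leukocyte markers (0.57) and 3 of 6 cell cycle genes (0.73) rose and 0 fell. With IMQ in HFD-fed mice 1 fibroblast marker fell, 4 leukocyte markers rose and 0 cell cycle genes passed in limma. Of 6 sebaceous gland markers 1 rose and 1 fell in CD-fed mice, and 2 fell and 0 rose in HFD-fed mice (median -1.01). Of 6 adipocyte markers 2 fell in CD-fed (median -0.77) and 1 in HFD-fed mice, and 0 rose. Of 7 mammary and simple epithelium markers 1 rose in CD-fed mice and 0 passed in HFD-fed mice. For the interaction 1 cell cycle gene passed, Plk1 (-1.21), a mitotic kinase gene. The part of these marker lists in the results on the family was not tested.

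**Figure D5:**
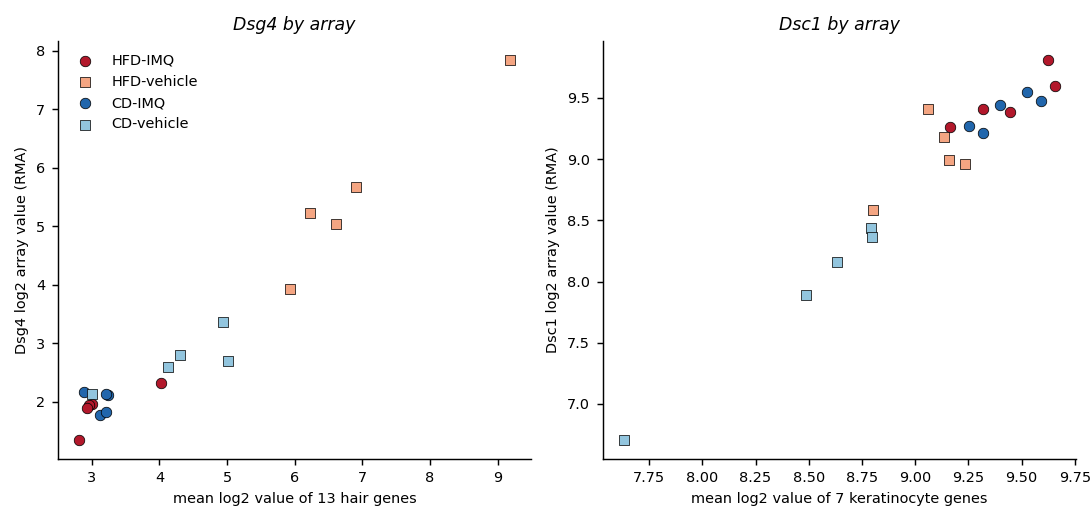
Left, Dsg4 against the mean of 13 hair markers; right, Dsc1 against the mean of 7 keratinocyte markers; each point is 1 array on log2 scales (RMA), coloured by group. The HFD-vehicle arrays are highest for Dsg4 and the hair markers, and CD-vehicle 3 is lowest for Dsc1 and the keratinocyte markers.

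Of 10 other desmosome genes, 2 rose and 1 fell with IMQ in chow-fed mice: Evpl (log2 difference 0.94 ± 0.17, SE) and Jup (0.62 ± 0.15) were higher and Pkp2 (-1.22 ± 0.30), a plakophilin of simple epithelia and heart, lower. Their median was 0.53. Desmoplakin (Dsp), which links the plaque to keratins, averaged 9.21 in CD-IMQ and 8.65 in CD-vehicle skin and did not pass (limma adjusted p = 0.171). None of the 10 passed with IMQ in HFD-fed mice in limma. Between HFD-vehicle and CD-vehicle skin 3 were higher, Evpl (0.88), Perp (0.76), a tetraspan protein of desmosomes, and Jup (0.63), and 0 lower.

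Kallikreins, related proteases and their inhibitors set how fast corneodesmosomes are cut. Of 15 genes 10 rose and 0 fell with IMQ in chow-fed mice, with a median log2 difference of 0.77. The largest were Klk13 (3.22 ± 0.25, SE), Klk6 (3.10 ± 0.28), Klk8 (1.73 ± 0.22) and Klk7 (1.52 ± 0.22), and the inhibitor gene Spink5 was among them (0.84 ± 0.21). In HFD-fed mice 5 rose, led by Klk13 (2.27), Klk6 (1.62), Klk8 (1.11) and Klk14 (0.82), and 1 fell, the matriptase gene St14 (-1.04 ± 0.30). Between HFD-vehicle and CD-vehicle skin 5 were higher, with Klk6 (1.65), Klk13 (1.27), St14 (1.12) and Klk7 (1.02) the largest, and 0 lower.

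Of 10 measured keratins that anchor to epidermal desmosomes, 6 rose and 2 fell with IMQ in chow-fed mice, with Krt6b (log2 difference 6.24), Krt16 (5.66) and Krt6a (4.36), keratins of wounded epidermis, the largest rises, and Krt77 (-4.03) the largest fall. In HFD-fed mice 5 rose and 2 fell, and the largest changes were those of Krt77 (-4.56), Krt6b (3.98), Krt16 (2.99) and Krt6a (2.25). Between HFD-vehicle and CD-vehicle skin 6 were higher and 0 lower.

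Genes of the other junctions between keratinocytes were counted in the same way. Of 10 adherens junction genes 0 rose and 0 fell with IMQ in CD-fed mice by limma, E-cadherin (Cdh1) being at 6.65 in CD-IMQ and 6.17 in CD-vehicle skin. In HFD-fed mice 1 fell, Ctnnb1 (-0.41 ± 0.12, SE), which encodes beta-catenin. Of 11 measured tight junction genes 1 fell in CD-fed mice, Cldn12 (-0.44 ± 0.14), and 1 in HFD-fed mice, Cldn1 (-1.0 ± 0.24), the main claudin of the epidermal barrier. Between HFD-vehicle and CD-vehicle skin Cdh3 (0.87), Nectin4 (0.74), Ctnnb1 (0.46) and Cldn1 (0.99) were higher.

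Among 10 measured regulators of keratinocyte and hair genes, Grhl3, a grainyhead-like factor of epidermal differentiation, rose with IMQ in chow-fed mice (log2 difference 1.03 ± 0.19, SE) and in HFD-fed mice (0.98 ± 0.19). Klf4 fell in chow-fed mice (-0.47 ± 0.15). In HFD-fed mice Lef1 (-1.46 ± 0.27) and Hoxc13 (-1.08 ± 0.19), both of the growing hair follicle, fell, as did Gata3 (-0.80 ± 0.16). Hoxc13 was also among the hair markers and Trp63 among the keratinocyte markers. Krt14, Krt1 and Krt10 of the keratin list and Perp of the desmosome list were keratinocyte markers too, so these lists are not separate observations. Between HFD-vehicle and CD-vehicle skin Lef1 (1.09), Hoxc13 (0.98) and Grhl1 (0.85) were higher and Klf4 lower (-0.55). No gene of the desmosome, adherens junction, tight junction, protease or regulator lists was called for the interaction in limma, and of the keratins Krt16 was (-2.67 ± 0.59, SE). Of the hair markers 5 were, all with negative terms, from -3.05 (Krt73) to -3.99 (Krt72). Krt72 averaged 2.93 in CD-IMQ and 2.93 in CD-vehicle skin, near background, so the size of its term is uncertain. Of the 13 hair markers, 5 had means below the median feature in HFD-IMQ, 5 in CD-IMQ and 3 in CD-vehicle skin.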

How the data were processed

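Skin RNA was hybridised to Affymetrix arrays, 1 per mouse and 5 per group. Per the submitters' processing notes the authors made the deposited log2 values by RMA with the affy package; the sources used here give no versions, no genome build and no word on whether all arrays were normalized together. The platform annotation gave 1 gene symbol for 23521 of 41345 features, several for 1814 and none for 16010. This left 22180 genes for the tests, each by its single-symbol feature with the highest mean, with no filter on dim genes.

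Groups were taken from the labels, and the means of 4 groups were fitted over all 20 arrays with limma 3.58.1 (lmFit, eBayes) in R 4.3.3. Calls were made where the p adjusted by Benjamini-Hochberg across all genes of a comparison was below 0.05. The fit was tested on simulated data. Replicate numbers were not treated as pairs, since residuals of same-numbered arrays correlated above 0.1 in 4 of 30 pairs (lowest -0.217, highest 0.32).

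The members and the lists of partner and marker genes were chosen with earlier results of these data known. List genes without a single-symbol feature, such as Krt5, were not analysed here. Named were all members, per list the called genes with the largest changes, at most 4 per comparison and shortened for length, and per member the 3 genes of highest Pearson's r, leaving out predicted, small RNA and olfactory receptor names. A few uncalled list genes (Dsp, Cdh1, Dsg1c and Trp63) and the called gene Spink5 were named after their values were seen. Alternatives were other scalings, feature rules, filters, variance models, array weights, a replicate block, 2-group fits and leaving out arrays. The number of arrays limits the precision. Figures used Python 3.11.15 with matplotlib 3.10.9.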

Additional observations from a re-analysis of the deposited data

Results flagged for a closer look

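In 5 of the 40 gene and group combinations tested, 1 mouse lay far from the other 4 of its group. Chance alone gives about 5% of independent combinations, but these are not independent. The members varied together within groups, and all 5 cases came from CD-vehicle 3 and HFD-vehicle 3. CD-vehicle 3 was low for Dsg1a (6.96, against 7.78 to 7.93 in the other mice), for Dsc2 (3.24, against 4.06 to 4.26) and for Dsc3 (7.64, against 8.55 to 8.90). HFD-vehicle 3 was high for Dsg2 (6.15, against 4.28 to 4.62) and for Dsc2 (6.22, against 3.92 to 4.49). The change of Dsg4 with IMQ differed between diets, with an interaction term of -2.93 on the log2 scale (HFD-fed minus CD-fed mice, limma adjusted p = 0.0245): Dsg4 averaged 1.90 in HFD-IMQ and 5.54 in HFD-vehicle skin, and 2.0 in CD-IMQ and 2.72 in CD-vehicle skin. All of these means but that of HFD-vehicle skin were below the array medians, so the size of the fall in CD-fed mice is uncertain. The part of this low signal in the term was not tested. The HFD minus CD difference of Dsg4 was 2.82 in vehicle-treated and -0.11 in IMQ-treated skin. The term thus largely repeats the diet difference in vehicle-treated skin with its sign reversed.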

How the results depend on the processing

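No called log2 change of a member changed direction under any alternative run. Of 1490 alternative values of single members, 1445 kept their side of the threshold, 37 lost and 8 gained a call. Most of these values had no call to lose, since the main fit called 5, 2, 3, 0 and 1 of the 10 members in the comparisons in turn. The losses were mainly those of Pkp1 for HFD against CD in vehicle skin and of Dsg3 with IMQ in CD-fed mice. With IMQ in CD-fed mice 5 members passed, 3 when an absolute log2 change of at least 1 was also required (Dsg3 and Pkp1 being smaller). With IMQ in HFD-fed mice 2 passed, 1 with all features of a gene averaged, 1 in a fit of the 2 groups alone (Dsg2 lost each time), and 4 with CD-vehicle 3 and HFD-vehicle 3 left out. For HFD against CD in vehicle skin 3 passed and 1 in a fit of the 2 groups alone, where Dsc1 and Pkp1 were lost. For the interaction 1 passed and 0 with a variance trend and robust estimation (Dsg4 adjusted p = 0.0597); leaving out each array in turn gave 0 to 1. With the replicate number as a block (replicate block), 4 members passed in CD-fed mice (Dsg3 lost, adjusted p = 0.0617) and 2 for HFD against CD in vehicle skin (Pkp1 lost, adjusted p = 0.0587), and the counts in HFD-fed mice (2), for the diets after IMQ (0) and for the interaction (1) were the same. Centring the arrays also ended the calls of Dsg3 (adjusted p = 0.052) and Pkp1 (0.0621). Over all genes, a log2 change of at least 1 left 208 higher and 155 lower calls with IMQ in CD-fed mice (868 and 1556 without that limit), 200 and 155 in HFD-fed mice (809 and 497), 128 and 42 for the diets in vehicle skin (271 and 212) and 54 and 26 for the interaction (105 and 42). With CD-vehicle 3 and HFD-vehicle 3 left out, 139 and 78 were called for the diets in vehicle skin. Among the 13514 genes above the median feature, 839 were higher and 531 lower with IMQ in HFD-fed mice. The counts there were 324 and 264 for the diets in vehicle skin and 150 and 54 for the interaction. For the interaction, 65 and 30 were called without HFD-IMQ 1, 43 and 18 without HFD-IMQ 2, 66 and 28 without HFD-IMQ 5, 45 and 15 without HFD-vehicle 1, 40 and 17 without CD-IMQ 4, 57 and 18 without CD-IMQ 5, and 56 and 27 without CD-vehicle 3. For the diets after IMQ the alternatives other than leaving out HFD-IMQ 4 called 0 to 3 genes. Fits of 2 groups alone give no interaction. Where not stated otherwise, the cause was not tested. Signal near background limits the sizes given for Dsg4.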
